A study of Mus musculus with 14 samples.

Results

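The genes described here are 10 transcripts that mark neutrophils and their bone marrow precursors: *S100a8*, *S100a9*, *Ngp*, *Camp*, *Ltf*, *Lcn2*, *Elane*, *Mpo*, *Retnlg*, and *Csf3r*. They were taken by symbol, and all 10 were found among the 24062 genes of the count table. Bulk RNA-seq was performed on total RNA from 14 libraries, from untreated 9-month-old mice on a mixed C57BL/6, I-129, and FVBN background. The controls were 3 dorsal root ganglia (DRGs) with nerves from *Nf1*fl/fl mice, which carry the floxed allele without Cre (libraries DRG3, DRG4, and DRG5). The 11 plexiform neurofibromas (PNs) came from *DhhCre*;*Nf1*fl/fl mice. In these mice Cre is driven by *Dhh* in the Schwann cell lineage, so that neutrophils are not a target of the deletion. Of these PNs, 5 were slow-growing, with a volume change of less than 5 mm3 between MRI scans at 7 and 9 months of age, and 6 were fast-growing, with an increase of more than 35 mm3. The labels do not say that the control or PN libraries came from separate animals, and p-values measure the spread between these libraries.

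The libraries held between 9596773 and 17594164 counts on genes, and 3 counts corresponded to between 0.166 and 0.317 CPM, which are counts divided by library size, here after TMM scaling for library composition. All 8 Schwann cell markers and all 8 sensory neuron markers were detected, but the summed level of the neuronal list was 17.5 CPM in the fast-growing PN 1191, against 1158 CPM in DRG5, the next lowest library. The noncoding transcript *Rn45s* took between 3.48% and 18.1% of the counts of a library. One control, DRG5, stood apart in 9 of the 10 genes, all but *Csf3r*. The results of the 10 genes against controls are therefore given with and without it.

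Neutrophils fill their granules in waves while they mature in the bone marrow. The azurophil granule enzymes neutrophil elastase (*Elane*) and myeloperoxidase (*Mpo*) are transcribed in promyelocytes, and the specific granule proteins, such as cathelicidin (*Camp*), lactoferrin (*Ltf*), neutrophilic granule protein (*Ngp*), and lipocalin 2 (*Lcn2*), are transcribed in myelocytes and metamyelocytes. *S100a8* and *S100a9* encode the subunits of calprotectin, a calcium- and zinc-binding protein that fills the cytoplasm of neutrophils, and *Retnlg* encodes a secreted resistin-like protein. *Csf3r* encodes the receptor for G-CSF, the growth factor of this lineage, and it is also transcribed in monocytes. C/EBP factors and PU.1 are the main transcription factors that switch on these genes.

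The genes are spread over 7 chromosomes of mm10. *S100a8* (chr3:90668978-90670035, plus strand) and *S100a9* (chr3:90692632-90695721, minus strand) are neighbors, and *Camp* (chr9:109847379-109849617, minus strand), *Ngp* (chr9:110419747-110423012, plus strand), and *Ltf* (chr9:111019271-111042767, plus strand) follow each other on chromosome 9, with gaps of 570 and 596 kb. In the GENCODE annotation, only *Mpo* had exons that overlap another gene, *Gm11505* on the opposite strand, and its reads could not be assigned by strand here.

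Since most of these genes moved together across libraries, as described below, the stretch upstream of their starts is shown for 5 of them: the calprotectin pair and the 3 granule genes of chromosome 9. The sequences are from RefSeq on GRCm38.p6, 5′ to 3′ on the strand of the gene, within the 250 bases before the RefSeq start and ending before any exon that GENCODE places there. Capitals mark matches to the C/EBP-like letters TTGCNNAA or to GAGGAA, the core bound by PU.1, on either strand; no 2 matches overlapped.
S100a8, chr3:90668821-90668977: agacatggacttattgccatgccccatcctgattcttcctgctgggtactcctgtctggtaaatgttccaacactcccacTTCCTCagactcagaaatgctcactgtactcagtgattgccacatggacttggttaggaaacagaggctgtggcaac
S100a9, chr3:90695722-90695971: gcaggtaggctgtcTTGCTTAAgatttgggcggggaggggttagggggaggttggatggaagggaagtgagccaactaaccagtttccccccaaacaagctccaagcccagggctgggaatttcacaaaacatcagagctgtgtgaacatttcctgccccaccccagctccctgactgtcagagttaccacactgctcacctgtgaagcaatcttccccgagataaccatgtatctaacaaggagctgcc
Ngp, chr9:110419558-110419746: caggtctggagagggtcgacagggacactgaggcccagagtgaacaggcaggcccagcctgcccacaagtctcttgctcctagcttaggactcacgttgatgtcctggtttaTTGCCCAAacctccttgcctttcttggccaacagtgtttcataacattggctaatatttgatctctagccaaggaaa
Camp, chr9:109849618-109849706: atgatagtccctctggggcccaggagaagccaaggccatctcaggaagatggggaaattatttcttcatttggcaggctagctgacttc
Ltf, chr9:111019042-111019270: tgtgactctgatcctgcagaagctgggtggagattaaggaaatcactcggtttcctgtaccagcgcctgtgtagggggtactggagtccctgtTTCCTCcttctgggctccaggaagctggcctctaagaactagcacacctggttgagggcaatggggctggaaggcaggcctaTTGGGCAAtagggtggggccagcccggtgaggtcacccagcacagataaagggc

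In the full windows of 250 bases, TTGCNNAA was found upstream of 5 of the 10 genes (*S100a9*, *Ngp*, *Ltf*, *Lcn2*, and *Retnlg*), against 9.56% of 32851 promoters of the same length. GAGGAA was found upstream of 6 (*S100a8*, *Ltf*, *Lcn2*, *Elane*, *Mpo*, and *Csf3r*), against 23.3% of promoters. Upstream here means before the RefSeq start. The whole *Lcn2* window, and the *Csf3r* match, lay inside the gene as GENCODE places it. *Ngp* held a second TTGCNNAA match, and *S100a8* a second GAGGAA match, between the printed stretch and the RefSeq start. The *Camp* window held neither set of letters. These are matches of letters and not measured binding sites.

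Of the calprotectin pair, *S100a9* was measured at 85.7 CPM in DRG3, 21.2 CPM in DRG4, and 646 CPM in DRG5. In slow-growing PNs it was at 20.1, 52.3, 46.2, 26.4, and 7.42 CPM, and in fast-growing PNs it ranged from 7.47 to 100.4 CPM with a median of 32.0 CPM. DRG5 lay above every other library, whereas DRG4 lay inside the range of the PNs.

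*S100a8* followed its partner, at 52.4, 16.8, and 417 CPM in DRG3, DRG4, and DRG5. The slow-growing PNs were at 6.61, 24.0, 19.6, 12.5, and 2.31 CPM, and the fast-growing PNs between 3.11 and 36.1 CPM with a median of 9.62 CPM. Here DRG3 was also above all 11 PNs, and DRG4 was above 8 of them.

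Among the specific granule genes, *Ngp* was at 40.2, 4.25, and 206 CPM in the controls, at 14.4, 38.2, 21.9, 15.7, and 4.34 CPM in slow-growing PNs, and between 3.25 and 53.9 CPM in fast-growing PNs (median 17.7 CPM). *Camp* was at 12.5, 2.68, and 86.9 CPM in the controls, at 1.97, 5.26, 3.86, 2.74, and 0.675 CPM in slow-growing PNs, and between 0.148 and 6.58 CPM in fast-growing PNs (median 2.32 CPM). Thus *Ngp* in DRG4 was below 10 of 11 PNs, whereas *Camp* in DRG4 was below 6 of 11. *Lcn2*, which binds the siderophores that carry iron to bacteria, was at 16.6, 4.43, and 110.7 CPM in the controls, 4.91 to 28.8 CPM in slow-growing PNs, and 4.81 to 26.5 CPM in fast-growing PNs, and all 11 PNs exceeded DRG4. The iron-binding *Ltf* was at 13.8, 2.40, and 81.5 CPM in the controls and between 1.60 and 22.2 CPM in the PNs.

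Of the azurophil genes, *Mpo* was at 17.8, 1.57, and 157 CPM in the controls, 0.675 to 8.73 CPM in slow-growing PNs, and 1.26 to 11.1 CPM in fast-growing PNs. *Elane* was at 2.33 CPM in DRG3 and 29.8 CPM in DRG5, and DRG4 had a count of 0, which allows up to 0.277 CPM. In the PNs *Elane* rested on 4 to 26 counts per library, between 0.296 and 1.97 CPM. *Retnlg* was at 9.84, 1.94, and 72.0 CPM in the controls and between 0.867 and 13.5 CPM in the PNs.

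*Csf3r* had a different profile. It was at 9.41, 19.8, and 36.5 CPM in DRG3, DRG4, and DRG5, at 10.4, 20.0, 12.9, 5.93, and 3.66 CPM in slow-growing PNs, and between 15.5 and 46.1 CPM in fast-growing PNs (median 20.7 CPM). The fast-growing PN 1179, not DRG5, had the highest level, and DRG3 was below 9 of 11 PNs. Per kilobase of the longest transcript, the median level in PNs ran from *S100a9* (50.8 CPM per kb) through *S100a8* (25.1), *Ngp* (12.8), *Lcn2* (9.34), *Csf3r* (5.27), *Retnlg* (5.12), *Camp* (3.61), *Ltf* (2.22), and *Mpo* (1.58) to *Elane* (0.463). The ranges of neighbors in this order overlapped over the PNs.

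**Figure D1:**
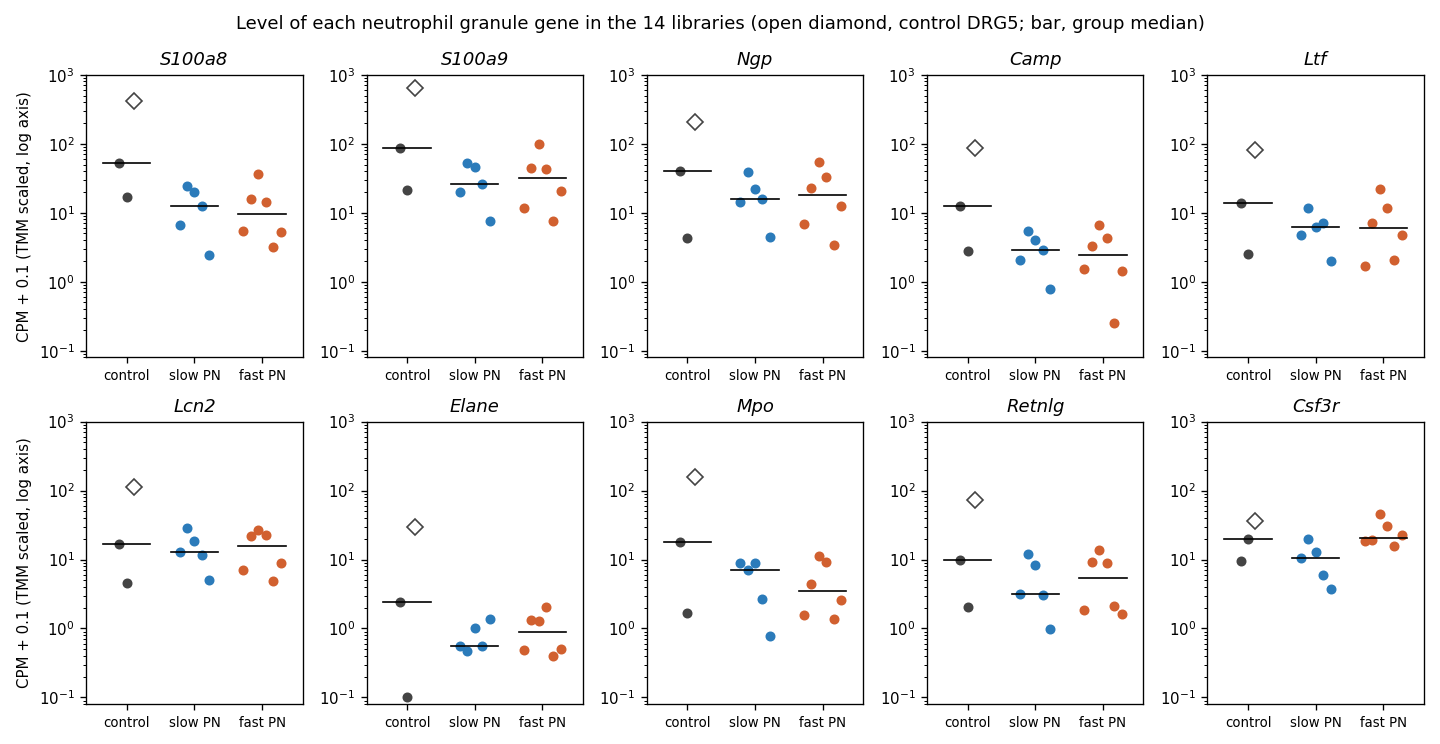
Level of each of the 10 genes in every library, as TMM-scaled CPM plus 0.1 on a log axis; points are libraries, bars are group medians, and the open diamond is control DRG5. DRG5 is the highest library for 9 genes (29.8 CPM for *Elane* to 646 CPM for *S100a9*). DRG3 also lies above all 11 PNs for *S100a8*, *Camp*, *Elane*, and *Mpo*. DRG4 lies below all 11 PNs for *Lcn2* and *Elane*. Otherwise DRG3 and DRG4 lie within the range of the PNs.

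The first comparison asked whether the granule genes differ between PNs and controls. With all 3 controls, 7 of 10 genes were lower in PNs (edgeR quasi-likelihood test, Benjamini-Hochberg adjustment over all genes tested), where 26.3% of all 16283 genes tested were called in either direction and 13.4% were called lower. An unadjusted p under 0.05 was reached by 9 of 10, against 38.9% of all genes. The median log2 fold change was -2.57 over the 10 genes and 0.10 over all genes. In bulk tissue, fewer cells of a type and less RNA per cell cannot be told apart. For none of the 10 genes did all 3 controls lie on the same side of all 11 PNs, which they did for 17.7% of all genes.

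*S100a8* was 12.4-fold lower in PNs (log2 fold change -3.63, SE 0.74, adjusted p = 0.00264 by edgeR) and *S100a9* 7.26-fold lower (-2.86, SE 0.74, adjusted p = 0.0119). *Camp* was 11.9-fold lower (-3.57, SE 0.75, adjusted p = 0.00323) and *Ltf* 4.45-fold lower (-2.15, SE 0.75, adjusted p = 0.0480). *Elane* and *Mpo* had log2 fold changes of -3.71 (SE 0.85, adjusted p = 0.00545) and -3.49 (SE 0.82, adjusted p = 0.00677), and *Retnlg* of -2.27 (SE 0.80, adjusted p = 0.0495). The call of *Retnlg* was lost in 4 of 6 other fits (adjusted p = 0.0513 to 0.287) and that of *Ltf* with limma-voom (0.289) and without a filter (0.0538). With limma-voom the calls of *Elane* (-0.97, adjusted p = 0.631), *Mpo* (-2.06, adjusted p = 0.171), and *S100a9* (-2.04, adjusted p = 0.105) were also lost, at smaller fold changes. *Ngp* (-2.02, SE 0.78, adjusted p = 0.0709), *Lcn2* (-1.51, SE 0.67, adjusted p = 0.108), and *Csf3r* (-0.23, SE 0.57, adjusted p = 0.797) did not pass the test.

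These calls depended on 1 library. Without DRG5, 0 of 10 genes were called by edgeR, 0 had an unadjusted p under 0.05, and 12.5% of all genes were still called. The log2 fold changes were then -1.40 for *S100a8* (SE 0.75, adjusted p = 0.248), -1.41 for *Camp* (SE 0.79, adjusted p = 0.273), -0.89 for *Mpo*, -0.63 for *S100a9*, and -0.53 for *Elane*. *Ltf* (-0.15), *Ngp* (-0.11), and *Retnlg* (-0.04) were near 0, and *Lcn2* (0.55) and *Csf3r* (0.35) lay on the other side of 0. Leaving out DRG3 or DRG4 in its place left 7 and 9 genes called, and limma-voom called *S100a8* and *Camp* alone with all controls.

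**Figure D2:**
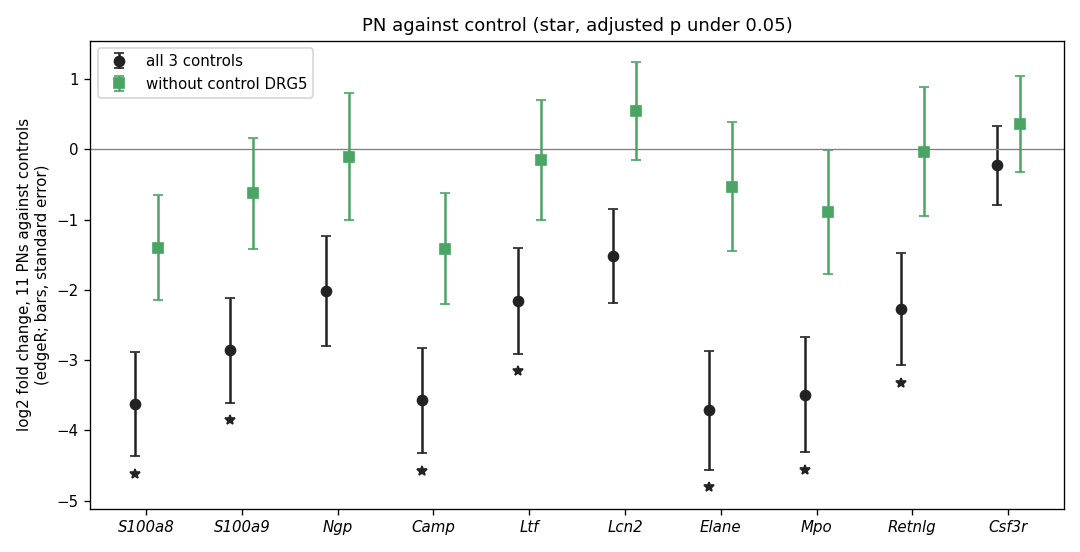
Log2 fold change of 11 PNs against controls for each gene, with standard errors from edgeR, with all 3 controls (circles) and without DRG5 (squares); stars mark an adjusted p under 0.05. With DRG5 7 genes carry a star, and without it none does, with *S100a8* and *Camp* lowest at -1.40 and -1.41.

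The growth groups, each set against the same 3 controls, gave fewer calls. In slow-growing PNs 1 of 10 genes was called lower, *Camp* (log2 fold change -3.58, SE 0.97, adjusted p = 0.0484 by edgeR), where 11.3% of all genes were called and 7.13% were called lower. The call of *Camp* was lost with robust fitting (adjusted p = 0.0520) and limma-voom (0.215), which called 0 of the 10 genes, whereas DESeq2 called 6 and 1 fit of all 14 libraries called 5; leaving out any of the 5 slow-growing PNs gave 0. *S100a8* was at -3.68 in slow-growing PNs (SE 1.01, adjusted p = 0.0502). In fast-growing PNs 4 genes were called lower, *S100a8* (-3.70, adjusted p = 0.0179), *Camp* (-3.67, adjusted p = 0.0226), *Mpo* (-3.64, adjusted p = 0.0310), and *Elane* (-3.64, adjusted p = 0.0423), where 31.4% of all genes were called and 16.7% were called lower. Here limma-voom called 0 of the 10 genes, and leaving out a fast-growing PN gave 1 (without 1053 or 1216), 2 (without 1071 or 1214), or more. Without DRG5 0 of the 10 genes were called by edgeR and 0 had an unadjusted p under 0.05 in either comparison, while 3.74% and 20.4% of all genes were still called.

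DRG5 was the highest of the 14 libraries for 9 of the 10 genes, against 14.2% of all genes tested. For the same 9 genes it was at least 3 times the next highest library, which held for 71 genes or 0.436% of those tested. The ratio to the next library was 12.8 for *Elane*, 8.80 for *Mpo*, 7.95 for *S100a8*, 6.94 for *Camp*, 6.43 for *S100a9*, and 5.32 for *Retnlg*, and it lay between 3.66 and 3.84 for *Ltf*, *Ngp*, and *Lcn2*. Together the 10 genes took 0.182% of the counts of DRG5, 0.0243% of DRG3, 0.00764% of DRG4, and between 0.00272% and 0.0307% of a PN library. The controls differed widely from each other: *Mpo* was 99.7 times as high in DRG5 as in DRG4, and *S100a9* 30.5 times.

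Within a library, some ratios between these genes did not overlap between controls and PNs, and this held in DRG4, where the levels were low, as well as in DRG5. This pattern was chosen after the values were seen and is a description, with no test. A ratio of counts in the same library does not depend on the scaling of libraries. For each *S100a9* count there were 0.612, 0.795, and 0.646 *S100a8* counts in DRG3, DRG4, and DRG5, and between 0.251 and 0.474 in the 11 PNs. The share of *S100a8* in the counts of both genes was lowest among controls in DRG3, at 38.0% (95% Clopper-Pearson interval 35.6% to 40.4%), and highest among PNs in the slow-growing PN 1203, at 32.2% (27.7% to 36.8%); these intervals cover counting error only, and they overlapped. For *S100a8* and *Ngp* the counting intervals of the nearest libraries overlapped as well, with shares of 56.6% (53.6% to 59.6%) in DRG3 and 48.8% (37.9% to 59.9%) in the fast-growing PN 1214.

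*S100a8* was also higher relative to the specific granule genes *Ngp*, *Ltf*, and *Lcn2* in every control than in every PN. The ratio of *S100a8* to *Ngp* was 1.31, 3.96, and 2.02 in the controls and between 0.419 and 0.955 in the PNs. The ratio of *S100a8* to *Lcn2* was between 3.2 and 3.8 in the controls and between 0.471 and 1.36 in the PNs. Here the counting intervals of the nearest libraries did not overlap, with shares of *S100a8* of 76.0% (72.9% to 78.9%) in DRG3 and 57.6% (54.2% to 60.9%) in the fast-growing PN 1179. *Camp* behaved like *S100a8*: there were 3.21, 1.59, and 2.37 *Ngp* counts for each *Camp* count in the controls and between 4.65 and 22 in the PNs, where the highest value, from the fast-growing PN 1214, rested on 2 *Camp* counts. *S100a8* and *Camp* themselves kept overlapping ratios, 4.19 to 6.28 in controls and 3.35 to 21.0 in PNs, and so did *Ngp* and *Ltf*, 1.77 to 2.91 in controls and 1.63 to 4.17 in PNs.

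Of the 45 pairs of the 10 genes, 36 had counts in every library, and 11 of these did not overlap between controls and PNs. *S100a8* was in 5 of the 11 pairs, *Camp* in 5, *S100a9* and *Lcn2* in 3 each, *Ngp*, *Ltf*, and *Retnlg* in 2 each, and *Mpo* and *Csf3r* in none. Over 15266 genes with counts in every library, the share whose ratio did not overlap between controls and PNs was 7.2% with *S100a8* as the reference, 4.59% with *Camp*, 1.41% with *Csf3r*, 1.37% with *S100a9*, 0.472% with *Lcn2*, 0.432% with *Ltf*, 0.426% with *Retnlg*, 0.38% with *Mpo*, and 0.229% with *Ngp*. Of the same 15266 genes, 7.2% had a lower ratio to *S100a8* in every control than in every PN. In the opposite direction, relative to *Ngp* or to *S100a9*, 2 of 15266 genes (0.0131%) were higher in every control than in every PN, and for both references these 2 genes were *S100a8* and *Camp*. Relative to *Ltf* or to *Retnlg* there were 3 (0.0197%), the same 2 genes and the muscle gene *Tnnc1*, and relative to *Lcn2* there were 15 (0.0983%). For *Camp* the separation from *S100a9* and *Ngp* was within counting error: its share of the counts of *Camp* and *S100a9* was 11.2% (7.66% to 15.7%) in DRG4 and 10.97% (7.29% to 15.7%) in the fast-growing PN 1053, and its share beside *Ngp* was 23.8% (20.4% to 27.4%) in DRG3 and 17.7% (11.9% to 24.8%) in PN 1053. The slow-growing and fast-growing PNs had overlapping ratios, with medians for *S100a8* to *S100a9* of 0.424 and 0.355 and for *S100a8* to *Ngp* of 0.627 and 0.673.

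**Figure D3:**
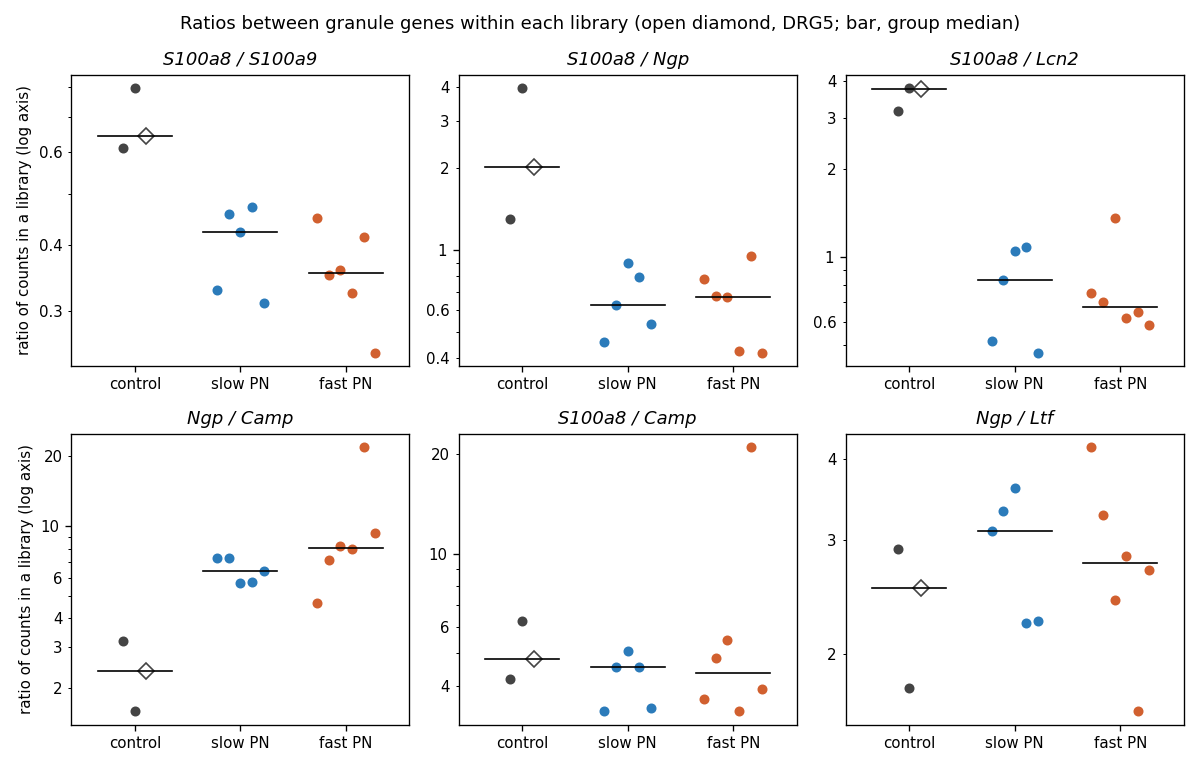
Ratio of counts between pairs of granule genes within each library, on log axes; points are libraries, bars are group medians, and the open diamond is DRG5. *S100a8* over *S100a9*, *Ngp*, or *Lcn2* is higher in all 3 controls than in all 11 PNs and *Ngp* over *Camp* is lower, while *S100a8* over *Camp* and *Ngp* over *Ltf* overlap.

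Across libraries the granule genes kept close company, and *Csf3r* did so less. As a description over libraries that share depth and composition, Pearson's r of log2(CPM + 1) lay between 0.77 and 0.98 (median 0.93) for the 36 pairs without *Csf3r* over 14 libraries. For the 15 pairs among *S100a8*, *S100a9*, *Ngp*, *Camp*, *Ltf*, and *Lcn2*, it was 0.86 to 0.98 over 14 libraries and 0.91 to 0.98 over the 11 PNs alone, which do not include DRG5. Pairs with *Elane*, which had few counts, ran from 0.18 to 0.42 in the PNs, and pairs with *Csf3r* from 0.18 to 0.63.

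The genes most like the mean of the 10 over 14 libraries, of 14352 ranked by r, were *Cd177* (0.97), a neutrophil surface glycoprotein, *Mmp8* (0.94), the neutrophil collagenase, *Abca13* (0.93), a lipid transporter, *Ifitm6* (0.86), *Hdc* (0.85), which makes histamine, *Gyk* (0.84), a glycerol kinase, *Chil3* (0.82), a chitinase-like protein, and *Mmp9* (0.80), gelatinase B. Over the 11 PNs alone, r was 0.96, 0.98, 0.83, 0.84, 0.72, 0.55, 0.89, and 0.78 in the same order, lowest for *Gyk*. *Cd177* was at 2.16, 0.647, and 23.6 CPM in the controls and between 0.222 and 3.66 CPM in the PNs. *Mmp8* was at 6.48, 1.66, and 27.7 CPM in the controls and between 0.482 and 13.8 CPM in the PNs. *Csf3r* alone was most like *Clec7a*, *Dapp1*, and *Tifab* (r = 0.93 each), and *Cybb*, a subunit of the phagocyte oxidase that monocytes and macrophages also use, was among its 8 closest genes (0.93).

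Further genes of neutrophils were read against the 13.4% of all genes called lower in PNs than in controls. Of 4 azurophil and promyelocyte genes tested, 1 was called lower in PNs by edgeR, the protease gene *Prtn3* (log2 fold change -3.44, SE 0.72, adjusted p = 0.003), with 1.99, 0.739, and 14.4 CPM in the controls; without DRG5 it was at -1.40 (adjusted p = 0.271). *Ctsg*, cathepsin G, was too low to be tested in this comparison, at 1.47, 0, and 11.4 CPM in the controls and at most 0.816 CPM in the PNs; it was tested in fast-growing PNs against control and called lower there (log2 fold change -3.78, SE 1.22, adjusted p = 0.0400 by edgeR), and without DRG5 it was at -1.19 (adjusted p = 0.579). Of 12 specific and gelatinase granule genes, 2 were called lower, *Pglyrp1* (-1.68, adjusted p = 0.0103), a peptidoglycan-binding protein, and *Lrg1* (-1.81, adjusted p = 0.0169). Without DRG5 neither was called, with *Pglyrp1* at -0.94 (adjusted p = 0.211) and *Lrg1* at -1.84 (adjusted p = 0.0605), as large as with DRG5. *Cd177* (-2.26, adjusted p = 0.0505) and *Mmp8* (-1.14, adjusted p = 0.288) did not pass, and both had a fold change above 0 without DRG5 (0.37 and 0.40).

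Of 12 genes of the surface and cytoplasm of mature neutrophils, 4 were called lower by edgeR, among them *G0s2* (-3.07, adjusted p = 0.00127), *Hdc* (-2.37, adjusted p = 0.0146), and *Il1r2* (-1.69, adjusted p = 0.0349), the decoy receptor of interleukin-1. *G0s2*, which fat also expresses, did not share the pattern of the granule genes: it was at 93.8, 96.7, and 78.3 CPM in the controls and was still called without DRG5. Without DRG5 *Hdc* was at -1.12 (adjusted p = 0.352) and *Il1r2* at -1.58 (adjusted p = 0.140), so that both calls were lost but the fold of *Il1r2* was close to that with DRG5. *Cxcr2*, the receptor that guides neutrophils to chemokines, was at 24.1, 41.7, and 48.7 CPM in the controls and between 24.7 and 34.8 CPM in the PNs.

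Among 7 transcription factors of granulocyte formation, 1 was called lower, *Cebpb* (-3.14, adjusted p = 7.79e-05 by edgeR), at 7.77, 5.82, and 10.04 CPM in the controls and 0.296 to 1.71 CPM in the PNs, and it was called without DRG5 as well. *Cebpe*, the factor of the specific granule stage, had at most 0.634 CPM in any library. *Spi1*, which encodes PU.1, was at 3.02, 18.8, and 17.1 CPM in the controls and between 1.19 and 22.7 CPM in the PNs. Of 8 growth factor and chemoattractant genes, 3 were called lower: *Cxcl12* (-1.48, adjusted p = 0.0018), which holds neutrophils in the marrow, and the receptor subunits *Csf2rb* (-1.69, adjusted p = 0.0316) and *Csf2rb2* (-1.56, adjusted p = 0.0459); without DRG5 *Cxcl12* alone of these was called (-1.11, adjusted p = 0.0345), while *Csf2rb* was at -1.45 (adjusted p = 0.162) and *Csf2rb2* at -1.42 (adjusted p = 0.174). *Csf3*, the ligand of *Csf3r*, had a highest level of 0.193 CPM in any library. Of 7 receptors of the secreted proteins, 0 were called by edgeR and 1 had an unadjusted p under 0.05. Among them were *Tlr4* (0.37, adjusted p = 0.586) and *Ager* (-0.78, adjusted p = 0.443), receptors for calprotectin.

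Markers of other cell types also stood high in DRG5, and their part in the result was not tested. All 9 megakaryocyte and platelet genes tested were highest in DRG5; the 10 genes of that list summed to 84.9, 66.1, and 297 CPM in the controls, and to between 11.9 and 69.5 CPM in slow-growing and 11.4 and 20.7 CPM in fast-growing PNs. Of these, 7 of 9 were called lower in PNs by edgeR, with a list median of -2.61, among them *Pf4* (-2.29, adjusted p = 0.00247) and *Gp1ba* (-2.61, adjusted p = 0.00129). Without DRG5 *Gp1ba* was still called (-1.83, adjusted p = 0.0379), and *Pf4* was not (-1.56, adjusted p = 0.0618). Of 8 erythroid genes tested 7 were highest in DRG5 and 3 were called lower, among them *Slc4a1* and *Klf1*, neither of which was called without DRG5 (-1.04 and -1.74). The list summed to 161, 73.3, and 297 CPM in the controls and 27.0 to 183 CPM in the PNs. The adult globins *Hbb-bs*, *Hbb-bt*, *Hba-a1*, and *Hba-a2* were at or near 0 in all 14 libraries. *Alas2*, of the same list, was at 103, 55.6, and 104 CPM in the controls and 14.1 to 115 CPM in the PNs. The globin values are therefore not read as an absence of red cell RNA, and their cause was not tested.

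Skeletal muscle markers were highest in DRG5 for 8 of 8 genes and summed to 2750, 6391, and 11058.5 CPM in the controls, against 9.61 to 2520 CPM in the PNs. Fat markers were highest in DRG5 for 4 of 6 genes and summed to 3739, 3319, and 4912 CPM in the controls, against 5.10 to 2433 CPM in the PNs. With all 3 controls, 4 of 8 muscle and 2 of 6 fat genes were called lower in PNs by edgeR, where 13.4% of all genes were. In fast-growing PNs these counts were 6 and 6, where 16.7% of all genes were called lower. Cell cycle genes were highest in DRG5 for 7 of 8. By contrast, 1 of 13 monocyte and macrophage genes was highest in DRG5, and this list summed to 374, 1564, and 1494 CPM in the controls. The B cell list summed to 12.5, 183, and 246 CPM in the controls, so that DRG4 resembled DRG5 there, unlike in the granule genes. Bone and cartilage genes summed to 83.8, 71.1, and 182 CPM in the controls and 19.2 to 135 CPM in the PNs, and the osteoblast gene *Ibsp* was at 3.28, 1.39, and 24.1 CPM in the controls.

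**Figure D4:**
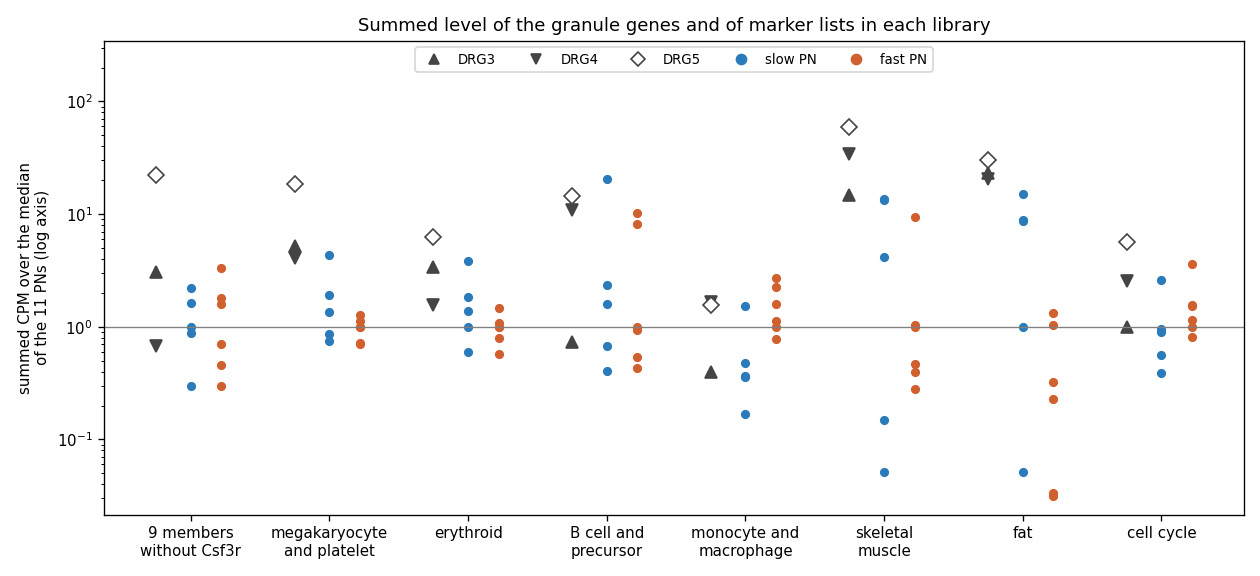
Summed CPM of 9 granule genes (without *Csf3r*) and of marker lists in each library, divided by the median of the 11 PNs, on a log axis; triangles and the open diamond are controls, and circles are PNs. DRG5 is highest for the granule genes, the megakaryocyte and platelet, erythroid, skeletal muscle, fat, and cell cycle lists, but not for the B cell or the monocyte and macrophage list.

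The last comparison asked whether the genes differ between fast-growing and slow-growing PNs. No gene of the 10 was called by edgeR, where 1.27% of 15465 genes were called in either direction. An unadjusted p under 0.05 was reached by 1 of the 10, *Csf3r*, against 20.4% of all genes. *Csf3r* was 2.38-fold higher in fast-growing PNs (log2 fold change 1.25, SE 0.42, adjusted p = 0.125), and 4 slow-growing PNs lay below all 6 fast-growing PNs. The remaining slow-growing PN, 1198A at 20.0 CPM, overlapped them. Without 1198A the adjusted p was 0.0404 by edgeR, and DESeq2 gave 0.0414 with all 11 PNs, in fits that called 1195 and 1592 of all genes against 196 by edgeR with all 11 PNs.

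The 9 granule genes lay close to 0 in this comparison. The log2 fold changes ran from -0.15 for *Mpo* (SE 0.70) to 0.40 for *Elane* (SE 0.56), with 0.02 for *S100a8* (SE 0.68), 0.32 for *S100a9* (SE 0.65), and 0.22 for *Ngp* (SE 0.68). The standard errors ran from 0.52 to 0.73, and for each of the 9 genes the difference was smaller than its standard error. Of 13 monocyte and macrophage genes, 0 were called by edgeR and 10 had an unadjusted p under 0.05, where 20.4% of all genes did, with a list median of 1.63 on the log2 scale; *Cybb*, which was not in that list, was at 2.04 (adjusted p = 0.0833). The part of these genes in the *Csf3r* difference was not tested.

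**Figure D5:**
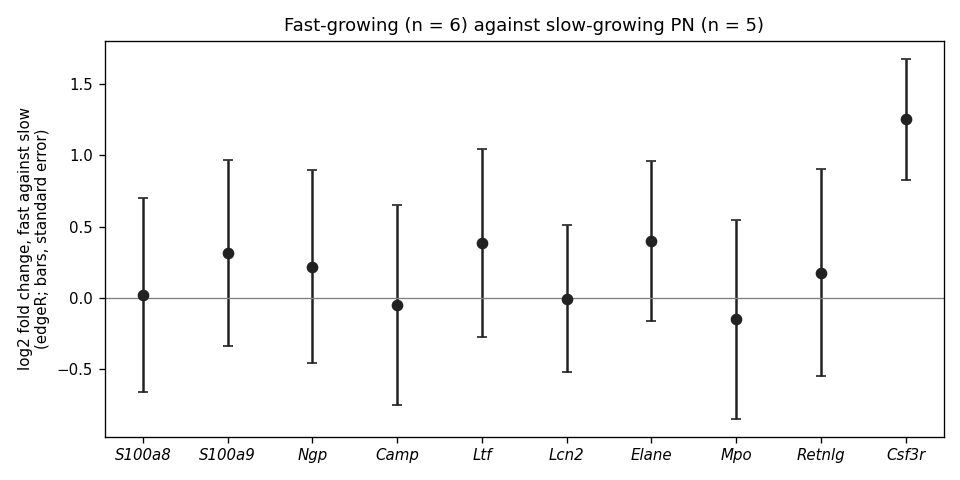
Log2 fold change of fast-growing (n = 6) against slow-growing PNs (n = 5) for each gene, with standard errors from edgeR. *Csf3r* lies at 1.25, and the other 9 genes lie between -0.15 and 0.40.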

How the data were processed

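Gene counts of 14 libraries were analyzed. Per the labels and methods, the authors amplified total RNA (NuGEN Ovation kit), aligned reads to mm10 with TopHat2 (version 2.0.9), and deposited raw counts per gene from featureCounts (version 1.5.2); the strand setting is not given in the sources used here. The authors also deposited log2 values after TMM scaling in edgeR (version 3.16.5), which were not used. Groups came from the labels.

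Counts were tested with edgeR 4.0.16 in R 4.3.3 (filterByExpr, TMM scaling, quasi-likelihood F test, Benjamini-Hochberg adjustment over all genes tested, threshold 0.05), with the libraries of each comparison only. The SE is the absolute log2 fold change divided by the square root of F. RLE scaling, DESeq2 1.42.0, limma-voom (limma 3.58.1), no filter, robust fitting, 1 fit of all 14 libraries, and each library left out were alternatives. On data simulated for PN against control (16058 genes, 200 changed by 2 on the log2 scale), 83% of changed genes were recovered. For slow-growing against control (15502 genes) it was 64.5%, and for fast-growing against control (15847 genes) 81.5%. For fast-growing against slow-growing (15297 genes) it was 87%. False calls made up 4.60%, 3.01%, 3.55%, and 5.43% of the calls, in the same order. The changed genes were drawn at random from all genes above a low mean level, each with its own dispersion. These shares are therefore not the power for the 10 genes described here.

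The members and all gene lists were chosen with earlier results of these data known. Named genes were the 10 members, from each list up to 4 of the called genes with the lowest p between PNs and controls and of those with the highest mean level, and the 8 genes most like the members by Pearson's r of log2(CPM + 1). *Ctsg*, *Spi1*, *Cebpe*, *Csf3*, *Tlr4*, *Ager*, *Tnnc1*, the globins, and the genes most like *Csf3r* were named outside this rule, after their values were seen. The 17 lists held 174 genes, of which 172 were in the table, 3 by an older symbol; the other 2 were not analysed here. Some listed genes are not reported here.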

Additional observations from a re-analysis of the deposited data

How the results depend on the processing

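For PN against control, 50 of 60 values of the 10 genes under the 6 other fits kept their direction and their side of the threshold, 9 lost and 1 gained the call, and 0 turned; the count of genes called was 2 with limma-voom. For slow-growing PN against control it was 6 with DESeq2, 0 with limma-voom, 2 without a filter, 5 with all 14 libraries in 1 fit, and 0 with robust fitting, for fast-growing PN against control 0 with limma-voom, and for fast against slow 1 with DESeq2 (*Csf3r*). Leaving out 1 library gave 0 to 9, 0 to 3, 0 to 5, and 0 to 1 called genes in these 4 comparisons. Over all genes, slow-growing PN against control gave 3529 calls with DESeq2 and 3280 in 1 fit (1769 mainly), and fast against slow 130 with RLE, 1592 with DESeq2, 34 with limma-voom, and 423 in 1 fit (196 mainly). With 1 library left out, calls over all genes ranged from 2061 to 4779, 599 to 2454, 3342 to 5246, and 2 to 1195. Calls among listed genes were 35 with DESeq2 and 23 in 1 fit for slow-growing PN against control (12 mainly), and 26, 0 with limma-voom, and 3 in 1 fit for fast against slow (1 mainly); with 1 library left out they ranged from 8 to 42, 1 to 26, 27 to 57, and 0 to 22. Of the 8 genes most like the members, 5 were shared with the 11 PNs alone. The causes were not tested.

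Between fast-growing and slow-growing PNs, limma-voom turned *S100a8* (-0.12), *Ngp* (-0.083), and *Ltf* (-0.071). With 1 library left out the log2 fold changes ranged from -0.61 to 0.37 for *S100a8*, -0.28 to 0.60 for *S100a9*, -0.29 to 0.65 for *Ngp*, -0.52 to 0.28 for *Camp*, -0.23 to 0.73 for *Ltf*, -0.26 to 0.35 for *Lcn2*, -0.57 to 0.10 for *Mpo*, and -0.26 to 0.70 for *Retnlg*. For PN against control they ranged from -2.05 to 0.55 for *Lcn2*, -0.59 to 0.35 for *Csf3r*, -2.81 to 0.37 for *Cd177*, and -1.66 to 0.40 for *Mmp8*, for slow-growing PN against control from -2.08 to 0.51 for *Lcn2*, and for fast-growing PN against control from -2.61 to 0.0068 for *Ltf*, -2.13 to 0.54 for *Lcn2*, -2.83 to 0.040 for *Retnlg*, and -0.22 to 0.79 for *Csf3r*. No paired analysis was possible because the labels give no replicate numbers that link libraries of different groups. *Elane* and *Camp* had the fewest counts, and their PN values are the least precise.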
